A study of Mus musculus with 15 samples.

Results

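The genes described here encode the main enzymes that methylate lysine 9 of histone H3 (H3K9) and the heterochromatin proteins that bind this mark. The set was chosen by gene symbol and holds 10 genes: Setdb1, Suv39h1, Suv39h2, Ehmt1, Ehmt2, Trim28, Atf7ip, Cbx1, Cbx3 and Cbx5. All 10 were found among the 22035 genes of the table of RNA and H3K27me3 and among the 25727 genes of the table of H3K4me3 at start sites. Of 98085 bins of 2 kb, 13 touch 1 of these genes, and these bins cover 7 of the 10.

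Wild-type male TT2 cells, an embryonic stem cell line of the mouse from a cross of C57BL/6 and CBA, were profiled by native ChIP-seq, in which chromatin is immunoprecipitated without crosslinking, and by RNA sequencing. The H3K9me3 data comprise 1 library each from 1000000, 100000 and 10000 cells plus 3 from 1000 cells (a, b and c), and panH3, which follows histone H3 in any state of modification, has 2 libraries of 1000 cells (a and b). H3K27me3 was measured in 1 library each of 100000, 10000 and 1000 cells, H3K4me3 in 1 library each of 100000, 10000 and 5000 cells, and RNA in 1 library of 1000 cells. The labels name no treatment, all groups share the line and its genotype, and only H3K9me3 and panH3 at 1000 cells have replicate libraries. Since the labels do not tell separate cultures from repeats of 1 culture, a p-value here speaks only of the scatter among these libraries.

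In heterochromatin, methyltransferases place methyl groups on H3K9, and the proteins of the HP1 family bind the trimethylated form through a chromodomain and compact the chromatin around it. Suv39h1 and Suv39h2 act mainly at the repeats around centromeres, Setdb1 is brought by Trim28 and zinc finger proteins to endogenous retroviruses, and Ehmt1 and Ehmt2 (GLP and G9a) form a complex that lays down H3K9 monomethylation and dimethylation in gene-rich regions. In embryonic stem cells Setdb1 and Trim28 are known for keeping retroviral elements silent. H3K4me3 marks active promoters, and H3K27me3 is the mark of Polycomb repressive complex 2.

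Depth, recovered from the steps of the deposited values, ran from 13.03 to 45.5 M reads (M for 1000000) in the 11 libraries of the bin table and was 16.6, 1.07 and 1.86 M reads for H3K4me3 at 100000, 10000 and 5000 cells. In the RNA library 12 of 12 stem cell markers stood at 15.01 RPKM or more (reads per kilobase and per M reads), while 1 of 12 fibroblast and feeder markers and 1 of 10 endoderm and trophoblast markers reached 1 RPKM, with summed levels of 2.41 and 3.94 RPKM. Col3a1, Dcn and Lum, defining fibroblast genes, were listed at 0.

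The promoters of the set are shown for the genes at the extremes of H3K4me3: Cbx1, with the highest level at 100000 cells, Atf7ip, with the lowest, and the upstream and downstream promoters of Cbx5, a gene whose start sites differ in the mark. Each line gives the 250 bases before the start site on the gene's own strand, from RefSeq, with coordinates of GRCm38.p6, which cannot be set against the mm9 coordinates of the deposited tables. Capitals mark CG dinucleotides.
Cbx1, chr11:96788885-96789134 (+ strand): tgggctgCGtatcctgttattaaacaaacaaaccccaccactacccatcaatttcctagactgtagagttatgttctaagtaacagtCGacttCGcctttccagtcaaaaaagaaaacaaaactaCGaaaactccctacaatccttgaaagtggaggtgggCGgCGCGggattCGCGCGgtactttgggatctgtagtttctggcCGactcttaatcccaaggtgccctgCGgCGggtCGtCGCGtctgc
Atf7ip, chr6:136518601-136518850 (+ strand): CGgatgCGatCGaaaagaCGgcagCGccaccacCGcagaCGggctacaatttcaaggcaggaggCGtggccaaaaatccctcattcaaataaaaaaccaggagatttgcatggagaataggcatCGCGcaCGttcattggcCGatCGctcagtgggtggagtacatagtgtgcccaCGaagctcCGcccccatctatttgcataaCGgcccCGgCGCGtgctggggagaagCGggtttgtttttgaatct
Cbx5 upstream promoter, chr15:103239853-103240102 (- strand): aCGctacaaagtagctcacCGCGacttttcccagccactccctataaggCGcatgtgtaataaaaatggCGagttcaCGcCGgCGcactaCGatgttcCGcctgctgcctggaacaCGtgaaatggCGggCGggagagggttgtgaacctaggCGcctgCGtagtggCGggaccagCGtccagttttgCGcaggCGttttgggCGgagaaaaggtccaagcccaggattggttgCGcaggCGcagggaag
Cbx5 downstream promoter, chr15:103215353-103215602 (- strand): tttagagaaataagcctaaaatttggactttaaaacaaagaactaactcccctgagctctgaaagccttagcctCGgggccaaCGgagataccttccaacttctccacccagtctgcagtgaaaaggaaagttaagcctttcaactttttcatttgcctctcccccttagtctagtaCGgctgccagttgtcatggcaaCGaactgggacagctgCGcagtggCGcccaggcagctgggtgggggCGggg
The upstream promoter of Cbx5 holds 22 CG dinucleotides in these 250 bases and the downstream promoter 7, against 16 for Cbx1 and 20 for Atf7ip. RefSeq windows of 300 bases (250 before and 50 after the start) were found for all 10 genes, 14 windows in all. They hold a median of 29 CG dinucleotides (8 to 40) and 66.2% G and C, against medians of 7 and 52.7% over 32851 promoters. The GC box GGGCGG, searched on both strands, occurs in 13 of the 14 windows and in 35.7% of all promoters. TATAAA occurs in 0 of the 14 and in 13.6% of all, CCAAT in 4 and 37.4%, CACGTG in 3 and 7.15%, CCGGAAG in 1 and 8.86%, and TTTCGCGC in 0 and 0.323%. These matches describe letters in the windows and not binding.

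RNA of all 10 genes was present, at 7.36 to 123 RPKM, with a median of 19.5 RPKM against 1.02 over all genes and 6.53 over genes of at least 1 RPKM. Each value is from the single RNA library, so differences between genes have no replicate check, and where a gene has several transcripts the highest is given. The library holds many cells, so a low level from fewer expressing cells and from less RNA per cell cannot be told apart. Among the methyltransferases, Ehmt1 stood at 23.8 RPKM (percentile 93.9 of all genes) and Setdb1 at 16.4 (percentile 89.6). Ehmt2, the partner of Ehmt1, stood at 8.40 RPKM, Suv39h1 at 7.54 and Suv39h2 at 7.36 (percentiles 79.1, 77.3 and 77.0). Ehmt1 thus had 2.83 times the RPKM of Ehmt2 in this library, while the pair of Suv39h genes differed by 0.18 RPKM.

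The cofactors differed in level. Trim28 (KAP1), the scaffold that links zinc finger proteins to Setdb1 and HP1, stood at 119 RPKM, percentile 99.6. Atf7ip (MCAF1), which binds Setdb1 and keeps it stable and in the nucleus, stood at 22.6 RPKM. Of the HP1 proteins, Cbx1 (HP1 beta) stood at 123 RPKM, Cbx5 (HP1 alpha) at 24.4 and Cbx3 (HP1 gamma) at 11.1, so that Cbx1 had 5.04 times the level of Cbx5 and 11.1 times that of Cbx3. Cbx3 has 6 processed pseudogenes named after it in RefSeq, the other 9 genes none, and how reads that match several places were counted is not given in the sources used here, so its level is uncertain. The order of all 10, from the highest, was Cbx1, Trim28, Cbx5, Ehmt1, Atf7ip, Setdb1, Cbx3, Ehmt2, Suv39h1 and Suv39h2.

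**Figure D1:**
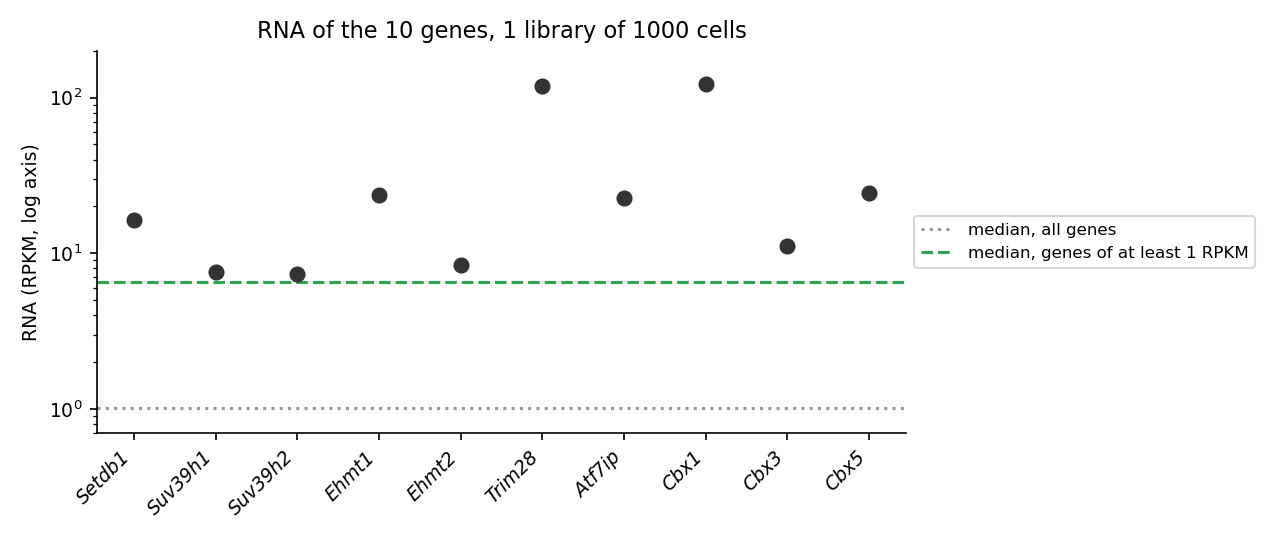
RNA level in RPKM (log axis) of each gene in the single library of 1000 cells, with lines at the median of all genes and of genes of at least 1 RPKM. Cbx1 and Trim28 stand at 123 and 119 RPKM, apart from the other 8 genes at 7.36 to 24.4 RPKM.

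The other genes of the pathway are given from fixed lists. All 30 listed partners and readers of the mark stood at 1 RPKM or more, with a median of 18.8 RPKM. The highest were Zfp57, a zinc finger protein that protects imprinted regions through Trim28, at 78.4 RPKM, Hells, a chromatin remodeller needed for DNA methylation, at 67.8, and Cdyl, a chromodomain protein, at 58.1. The lowest was D14Abb1e (Tasor), a subunit of the HUSH silencing complex, at 2.11 RPKM. The other 5 H3K9 methyltransferases had a median of 3.13 RPKM, from Prdm2 at 16.0, Setdb2 at 5.95 and Prdm16 at 3.13 to Prdm8, listed at 0. Of 11 H3K9 demethylases 10 reached 1 RPKM, led by Kdm1a at 34.2, Kdm4c at 32.0 and Jmjd1c at 28.2 RPKM, with Kdm4d at 0.62. The H4K20 methyltransferases that HP1 recruits, Suv420h2 and Suv420h1, stood at 9.03 and 7.36 RPKM. Of the other chromobox genes, whose proteins belong to Polycomb complexes, Cbx7 stood at 26.4 RPKM, Cbx6 at 5.94, Cbx2 at 4.59 and Cbx8 at 0.22.

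H3K4me3 was measured in windows of 1 kb centred on annotated start sites, 68 of them for the 10 genes, and the window with the highest mean over the 3 libraries stands for each gene, with the reads behind it. A gene can hold another window that is higher in 1 library, as Ehmt2 does. The members' median was 5.60, 32.8 and 16.4 RPKM at 100000, 10000 and 5000 cells, against 1.39, 3.75 and 2.15 over all genes and 4.58, 24.4 and 10.8 over genes with RNA of at least 1 RPKM. A gene with more windows has more chances of a high one, and the set holds 68 for 10 genes against 74866 for 25727 over all. By the mean of a gene's windows the medians of the set were lower, at 3.75, 23.1 and 10.6 RPKM. In these libraries 1 read was worth 0.0602, 0.938 and 0.539 RPKM, and intervals below are exact Poisson 95% intervals that cover counting error only. The levels of different libraries are not on a common scale, so genes are compared within a library.

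Among the methyltransferases, Ehmt1 stood at 8.07, 57.2 and 22.6 RPKM at 100000, 10000 and 5000 cells (134, 61 and 42 reads), the highest of the 5 at 10000 and 5000 cells. Suv39h2 stood at 6.14, 36.6 and 21.0 RPKM, Setdb1 at 5.06, 36.6 and 18.3, Ehmt2 at 6.5, 29.1 and 14.5 (with 8.85 RPKM, above Ehmt1, in another window at 100000 cells), and Suv39h1 at 4.46, 24.4 and 13.5. All 5 stood above the median of all genes in each library, and Suv39h1 was the lowest of them in each. Suv39h1 and Suv39h2, near each other in RNA, were at percentiles 75.3 and 84.8 of H3K4me3 at 100000 cells, with overlapping intervals of 3.50 to 5.59 and 5.01 to 7.46 RPKM.

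Cbx1 and Cbx3 carried the most H3K4me3 of the set at 10000 and 5000 cells. Cbx1 stood at 9.88, 68.4 and 36.6 RPKM (164, 73 and 68 reads) and Cbx3 at 7.47, 69.4 and 33.9 RPKM (124, 74 and 63 reads). Their RNA differed by the 11.1 times given above, while their H3K4me3 intervals overlapped in all 3 libraries. Hnrnpa2b1, a gene with RNA of 132 RPKM, touches the bin of 2 kb from -2.62 to -0.617 kb of the Cbx3 start site. How much of the mark at Cbx3 belongs to that gene was not tested. Cbx5 stood lower, at 2.29, 28.1 and 14 RPKM, and its intervals lay wholly below those of Cbx1 and Cbx3 in all 3 libraries.

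Trim28 and Atf7ip were at the low end. Trim28, at percentile 99.6 of RNA, stood at 3.67, 11.3 and 10.8 RPKM of H3K4me3 (61, 12 and 20 reads), percentiles 70.0, 62.8 and 75.9 of all genes. Cbx1, at nearly the same RNA level, stood at percentiles 96.1, 97.2 and 98.5. Atf7ip had 1.20, 11.3 and 2.69 RPKM on 20, 12 and 5 reads, percentiles 47.7, 62.8 and 53.6, although its RNA was at percentile 93.4. Its intervals were 0.736 to 1.86 RPKM at 100000 cells and 0.874 to 6.28 at 5000 cells, and at all 3 cell numbers the interval lay wholly below the median of genes with RNA of at least 1 RPKM. In the order of these windows at 100000 cells (Cbx1, Ehmt1, Cbx3, Ehmt2, Suv39h2, Setdb1, Suv39h1, Trim28, Cbx5, Atf7ip) the intervals of every 2 neighbours overlapped; by its own highest window in that library, 8.85 RPKM, Ehmt2 would stand after Cbx1.

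**Figure D2:**
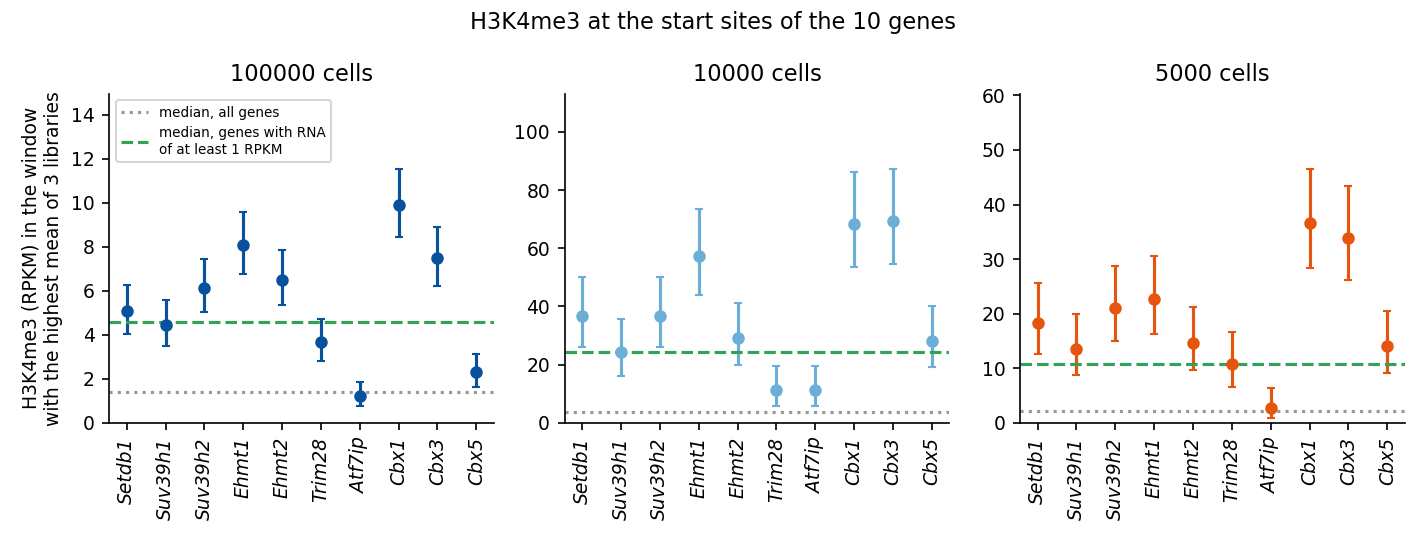
H3K4me3 in RPKM of 1 start-site window of each gene, that with the highest mean over the 3 libraries, 1 library a panel, with exact Poisson 95% intervals and lines at the medians of all genes and of genes with RNA of at least 1 RPKM. Cbx1 is highest at 100000 and 5000 cells, Cbx3 by a small margin at 10000, and Atf7ip is lowest at 100000 and 5000 cells and level with Trim28 at 10000.

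Where a gene had start sites far apart, the mark stood at the upstream group. Ehmt1 had 6 windows within 1 kb of the window that stands for it, at 7.89 to 8.07 RPKM at 100000 cells, and 7 windows 35.1 to 113 kb downstream, at 0 to 0.54 RPKM; at 10000 cells these groups stood at 57.2 and at 0 to 1.88. The 8 downstream windows of Trim28, 3.47 to 6.22 kb away, held 0.54 to 0.90 RPKM at 100000 cells against 3.67 at the upstream start site. Cbx5 had 2.29, 28.1 and 14 RPKM at its upstream start site (38, 30 and 26 reads), while the 3 windows about 24.5 kb downstream held 0.48, 2.81 to 3.75 and 1.08 RPKM (8, 3 to 4 and 2 reads). The CG-rich and the CG-poor promoter printed above lie 24.5 kb apart in GRCm38.p6, and they were matched to these start sites by order and spacing alone. The upstream site of Cbx5 lies 698 bases from the start site of Hnrnpa1, an RNA-binding protein gene on the other strand with RNA of 37.0 RPKM and H3K4me3 of 4.22, 60 and 26.4 RPKM, so the windows of 1 kb share bases and the mark of the genes cannot be told apart there.

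Ehmt2 differed in shape. At 100000 cells its H3K4me3 was 6.5 RPKM at the upstream site, 8.85 in 2 windows centred about 0.46 and 0.47 kb downstream, 5.60 at 1.20 kb and 0.54 to 1.45 RPKM in the 9 windows from 6.70 to 12.5 kb. At 10000 and 5000 cells the upstream windows, at 29.1 and 14.5 RPKM, were level with those 0.46 kb downstream, at 26.3 and 12.9. The start site of C2, a complement gene on the other strand with RNA of 0.17 RPKM, lies 47 bases away in the table, so the mark at this site is not that of Ehmt2 alone.

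**Figure D3:**
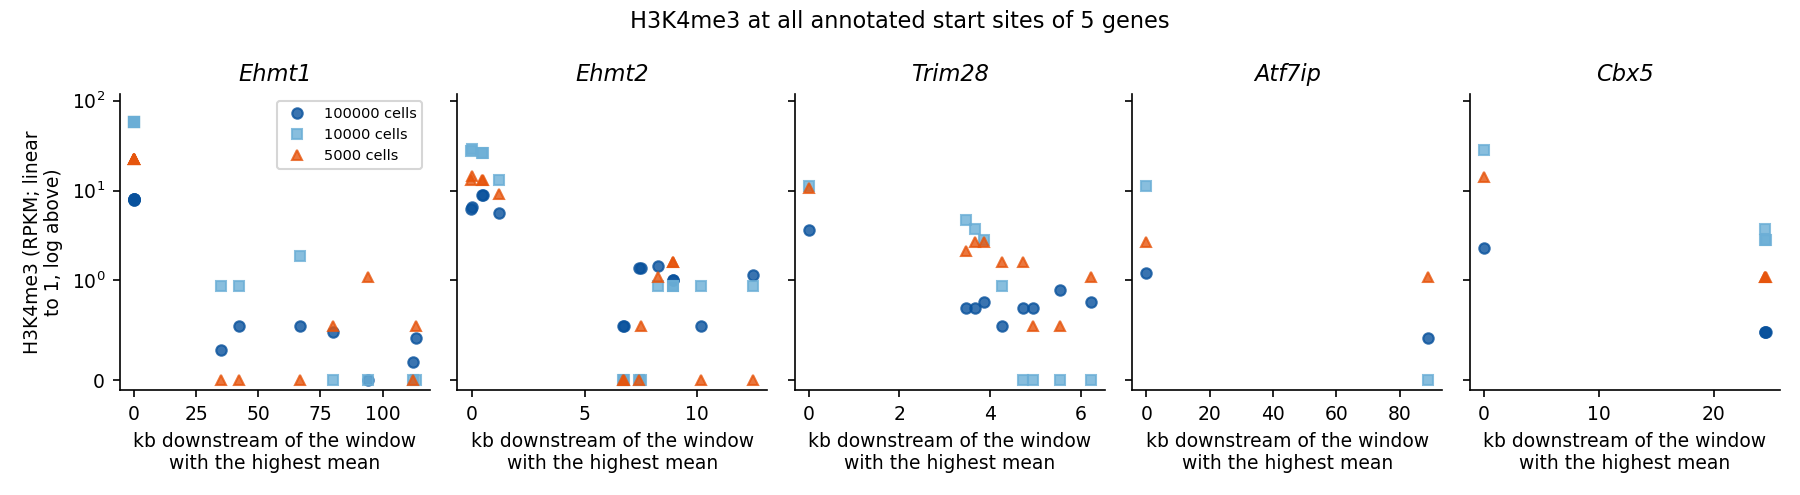
H3K4me3 in RPKM (linear to 1, log above) at every annotated start-site window of 5 genes, by distance in kb from the window with the highest mean over the 3 libraries, with 1 symbol for each of the 3 libraries. The windows at 0 kb stand above those far downstream in Ehmt1, Atf7ip and Cbx5 and above those several kb downstream in Trim28 and Ehmt2, and Ehmt2 keeps the mark to 1.20 kb.

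H3K27me3 needs a limit first. The deposited header places its window within 1 kb of the start site, but the values of minus-strand genes belong to the other end of the transcript. Among minus-strand transcripts that share the 3′ end and start more than 3 kb apart, all 849 of 849 pairs had identical values, and among those that share the start and end apart, 1 of 481. On the plus strand 482 of 482 pairs with a shared start were identical, and 13 of 837 with a shared 3′ end. The values therefore describe the start sites of Ehmt2, Trim28, Atf7ip, Cbx1 and Cbx3 and the 3′ ends of Setdb1, Suv39h1, Suv39h2, Ehmt1 and Cbx5.

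At the start sites of the 5 plus-strand genes H3K27me3 was low, with medians of 0.12, 0.13 and 0.14 RPKM at 100000, 10000 and 1000 cells. Plus-strand genes as a whole had medians of 0.30, 0.31 and 0.31 RPKM, plus-strand genes with RNA of at least 1 RPKM 0.18, 0.16 and 0.22, and the 28 plus-strand Hox genes, known Polycomb targets, 2.66, 3.03 and 1.52. Trim28 stood at 0.12, 0.05 and 0.05 RPKM, Cbx1 at 0.14, 0.13 and 0.17, Cbx3 at 0.10, 0.15 and 0.01, and Ehmt2 at 0.07, 0.07 and 0.14. Atf7ip was the highest of the 5 at 100000 and 1000 cells, with 0.36, 0.15 and 0.51 RPKM, and level with Cbx3 at 10000 cells. It stood above the plus-strand median at 100000 and 1000 cells and below it at 10000, so the libraries differ in where they place it. The largest of these values, 0.51 RPKM, is just below the lowest Hox gene of the plus strand at the same 1000 cells, at 0.53 RPKM. That margin is less than 1 read is worth in a 2 kb bin of this library, 0.0384 RPKM, so it does not separate Atf7ip from that gene.

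For 2 of the minus-strand genes a bin of 2 kb holds the true start site. The bin at chr3:95160001-95162000 (mm9, as are all bins below), which holds the start of Setdb1, had 0.03, 0.16 and 0.12 RPKM of H3K27me3 at 100000, 10000 and 1000 cells, and that at chr2:3392001-3394000, which holds the start of Suv39h2, had 0.15, 0.13 and 0.15. All 6 values lie below the medians of all bins, which were 0.36, 0.36 and 0.38 RPKM. Bins touching a gene with at least the RNA of Suv39h2, the lowest of the set, had lower medians, of 0.15, 0.16 and 0.23 RPKM. Suv39h2 at 100000 cells and Setdb1 at 10000 cells were level with these, and the rest lay below. The values rest on 1, 5 and 3 reads for Setdb1 and 6, 4 and 4 for Suv39h2. Only for Setdb1 at 100000 cells did the Poisson 95% interval, up to 0.142 RPKM, lie wholly below the median of such bins. At the 3′ ends, the 5 minus-strand genes had medians of 0.16, 0.10 and 0.14 RPKM against 0.25, 0.26 and 0.31 over minus-strand genes. Minus-strand genes with RNA of at least 1 RPKM had medians of 0.17, 0.16 and 0.24, so at 100000 cells the set was near their level. The Polycomb chromobox gene Cbx8, which lies on the minus strand, had 3.83, 4.22 and 1.70 RPKM there, and Cbx2, at its start site, had 1.59, 1.70 and 0.76.

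H3K9me3, the mark that Setdb1 and the Suv39h enzymes write and the HP1 proteins bind, was compared with panH3 in 1000 cells over the bins that touch the genes. Setdb1 has 2 such bins, Suv39h2 1, Ehmt1 3, Atf7ip 3, Cbx1 2, Cbx3 1 and Cbx5 1, and they cover 1.35% (Suv39h2) to 20.5% (Cbx1) of a gene's length. Suv39h1, Ehmt2 and Trim28 are touched by none. All 13 bins were among the 93575 tested, which needed a value above 0 in at least 1 of the 5 libraries, and no other gene of the table touches them. H3K9me3 was lower than panH3 in 12 of the 13 bins and higher in 1, with limma and Benjamini-Hochberg adjustment over all bins.

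That share has to be read against the genome. Over all tested bins 24.7% were lower and 15.2% higher in H3K9me3; over bins touching any gene 45.6% were lower and 7.19% higher; and over bins touching a gene with at least the RNA of Suv39h2, the lowest of the set, 75.8% were lower and 3.87% higher. The median log2 difference (on the scale of log2(RPKM + 0.1)) was -1.56 over the 13 bins, -1.26 over the bins of genes with such RNA and -0.10 over all bins. Most bins of other genes with such RNA were thus lower as well. When every library was centred on its own median, the calls over all bins went from 14224 higher and 23158 lower to 20312 and 18564 and the median log2 difference from -0.10 to 0.08, while the 13 bins kept 12 lower and 1 higher.

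In the methyltransferase genes all 6 bins were lower. The bin at the start of Setdb1 held 0.03, 0.03 and 0.09 RPKM of H3K9me3 in libraries a, b and c and 0.27 and 0.32 RPKM of panH3 in a and b, a log2 difference of -1.42 ± 0.27 (SE; limma adjusted p = 0.000137). Its other bin, at chr3:95144001-95146000, 15.1 kb into the gene, held 0.14, 0.16 and 0.09 RPKM against 0.82 and 0.57. The bin at the start of Suv39h2, of which 0.258 kb lie in the gene, held 0.11, 0.07 and 0.11 RPKM against 0.31 and 0.33 (log2 difference -1.10 ± 0.26, SE; limma adjusted p = 0.00122). In none of these bins did the libraries of the mark overlap those of panH3.

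The 3 bins of Ehmt1 lie 9.11, 69.1 and 77.1 kb downstream of the start site. Their mean was 0.10 ± 0.038 RPKM of H3K9me3 (SD, n = 3) against 0.478 ± 0.012 of panH3 (SD, n = 2). The bin nearest to the start held 0.09, 0.10 and 0.26 RPKM in a, b and c against 0.44 and 0.57 for panH3. Library c was the high one there, and still lay below both panH3 libraries.

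The most negative differences were in the HP1 genes Cbx1 and Cbx3. The bin 1.55 kb into Cbx1, chr11:96652001-96654000, held 0.14, 0.06 and 0.09 RPKM of H3K9me3 and 1.00 and 0.87 RPKM of panH3, a log2 difference of -2.41 ± 0.26 (SE; limma adjusted p = 7.80e-08), the most negative of the 13. The bin of Cbx3, 3.38 kb from its start site at chr6:51424001-51426000, held 0.06, 0.04 and 0.06 RPKM against 0.62 and 0.53 (-2.14 ± 0.26, SE; limma adjusted p = 4.14e-07). The bin of Cbx5 held 0.09, 0.06 and 0.09 against 0.54 and 0.34 RPKM. The mean of panH3 was 9.67 times that of H3K9me3 in the Cbx1 bin, 10.8 times in that of Cbx3 and 5.50 times in that of Cbx5. The H3K9me3 values rest on few reads, so these ratios are imprecise. In a, b and c the reads were 5, 4 and 5 for Cbx1, 2, 3 and 3 for Cbx3 and 3, 4 and 5 for Cbx5. In this Cbx1 bin panH3 was itself high, at percentiles 99.8 and 99.1 of all bins in a and b. Its mean H3K9me3, 0.097 RPKM, equalled that of the Suv39h2 bin and was above those of the bins of Cbx3 (0.053) and Cbx5 (0.08). The Cbx1 bin thus did not have the lowest mean of the mark itself, but counts this small do not settle the order of these bins.

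Atf7ip was the exception. Its bin at chr6:136474001-136476000, 6.62 to 8.62 kb downstream of the start site, held 2.48, 1.96 and 1.68 RPKM of H3K9me3 in libraries a, b and c and 0.58 and 0.62 RPKM of panH3. The 3 libraries of the mark lay above both of panH3, with a mean 3.40 times as high and a log2 difference of 1.60 ± 0.16 (SE; limma adjusted p = 3.90e-08). The level was also high with more cells, at 1.56, 1.53 and 1.68 RPKM in 1000000, 100000 and 10000 cells. By the mean of the 3 libraries of 1000 cells, 45 of 36083 bins touching a gene (0.125%) and 15 of 10992 bins touching a gene with at least the RNA of Suv39h2 (0.136%) were as high or higher, this bin included.

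The other measured bins of Atf7ip were not enriched against panH3. Its 3 bins cover 6.67% of the gene's length, so how far the enrichment runs is not known. The bin 12.6 kb from the start, 4 kb beyond the end of the enriched bin, held 0.37, 0.40 and 0.33 RPKM of H3K9me3 against 0.62 and 0.70 of panH3 (log2 difference -0.70 ± 0.21, SE; limma adjusted p = 0.00774), and this call was lost without panH3 a (adjusted p = 0.0553) and without panH3 b (adjusted p = 0.143). The bin at the far end of the gene, chr6:136554001-136556000, held 0.34, 0.29 and 0.26 against 0.87 and 0.87 RPKM. Upstream of the gene, the bin from -25.4 to -23.4 kb of the start site was again higher, with 1.00, 1.49 and 1.51 RPKM against 0.70 and 0.56 (0.96 ± 0.18, SE; limma adjusted p = 0.000116). Of the 39 bins that lie outside a gene of the set but within 50 kb of it, this was the only one called higher, and 29 were lower, against the 15.2% higher and 24.7% lower of all bins and the 7.19% and 45.6% of bins touching a gene.

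In the enriched bin of Atf7ip H3K27me3 stood at 0.23, 0.20 and 0.61 RPKM at 100000, 10000 and 1000 cells. The value at 1000 cells was close to the mean panH3 of 0.600 RPKM, and those at 100000 and 10000 cells were 0.383 and 0.333 times it. For these larger cell numbers no panH3 was measured. The gene with the H3K9me3 bin is also the one with the lowest H3K4me3 at 100000 and 5000 cells; whether these are related was not tested.

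**Figure D4:**
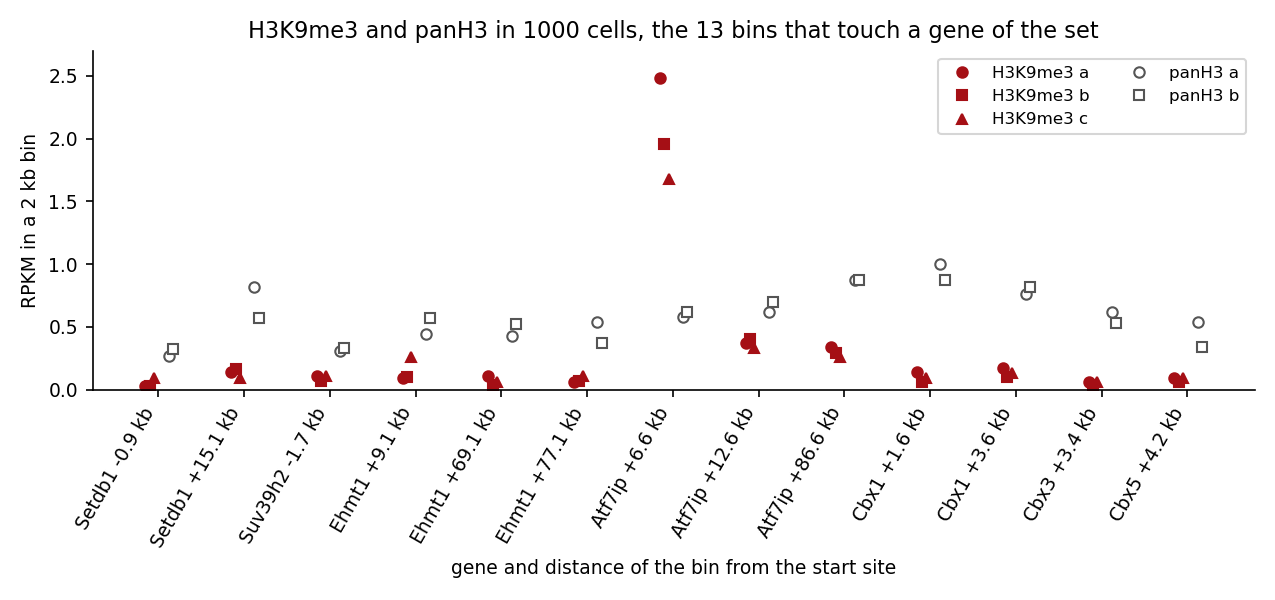
H3K9me3 (filled, libraries a, b and c) and panH3 (open, libraries a and b) in RPKM in 1000 cells for the 13 bins that touch a gene of the set, labelled by the distance of the nearest edge on the upstream side from the start site. H3K9me3 lies below panH3 in 12 bins and above it in the Atf7ip bin at 6.62 kb, at 1.68 to 2.48 RPKM.

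**Figure D5:**
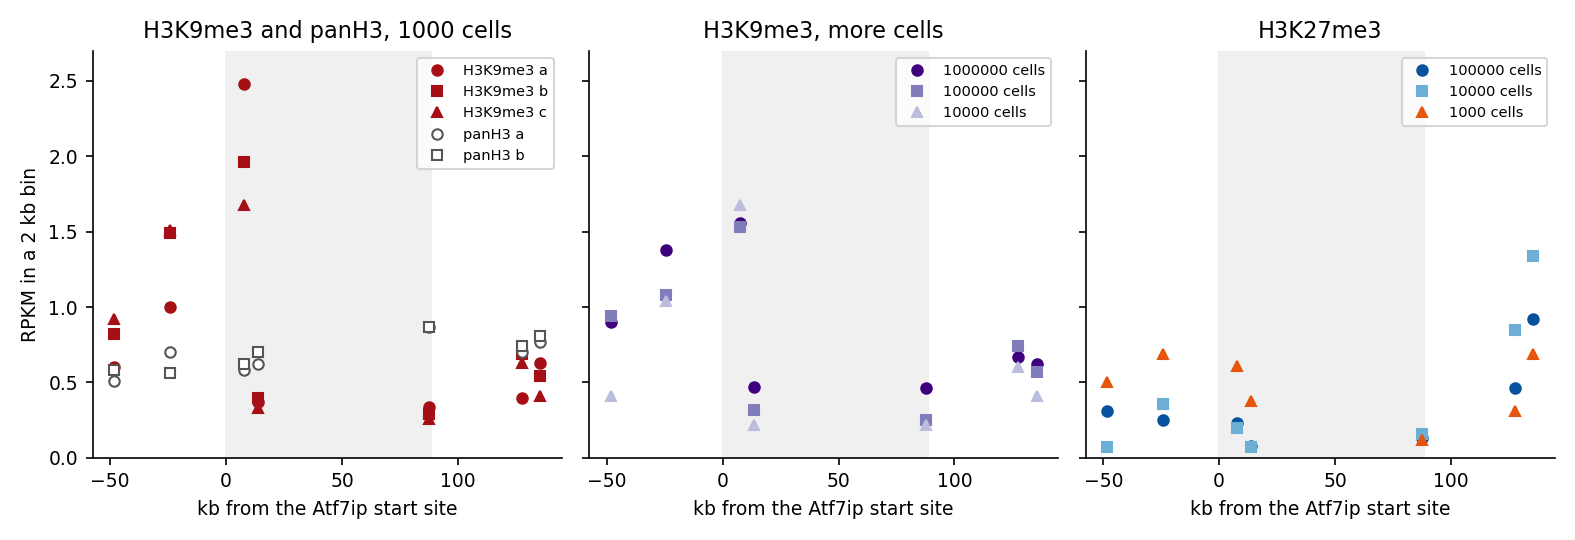
RPKM in the 7 bins of 2 kb in Atf7ip (grey, the gene) and within 50 kb of it, by distance from the start site, with H3K9me3 and panH3 of 1000 cells on the left, H3K9me3 of more cells in the middle and H3K27me3 on the right. H3K9me3 peaks in the bin at 6.62 kb and is next highest in the bin at -25.4 kb in the libraries of 1000 cells, at 1.00 to 1.51 RPKM.

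Across cell numbers, H3K9me3 in the bins of these genes was higher in the libraries of more cells. The median of the 13 bins was 0.32 RPKM at 1000000 cells, 0.17 at 100000, 0.15 at 10000 and 0.11, 0.07 and 0.11 in a, b and c of 1000 cells, while the medians of all bins lay between 0.34 and 0.36 in all 6 libraries. Higher medians with more cells were also seen in bins of genes with at least the RNA of Suv39h2, with medians of 0.27, 0.20 and 0.15 RPKM and then 0.17, 0.14 and 0.15 in a, b and c. The slope of log2(RPKM + 0.1) on log10 of the cell number was above 0 in 12 of the 13 bins, with a median of 0.30 for each factor of 10 in cells. It was above 0 in 82.3% of the bins of genes with such RNA, in 37 of the 39 bins within 50 kb of the set and in 50.3% of all bins. No bin passed the test with limma: 0 of 13 were called in either direction, and 7 had a rising slope at an unadjusted p under 0.05, against 5.53% of all bins and 24.1% of the bins of genes with such RNA. Over all 93569 bins 0.0% were called rising and 0.00107% falling, which was 1 bin.

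With voom weights on the recovered reads 4 of the 13 rose after adjustment, 1 each in Suv39h2 and Cbx1 and 2 in Ehmt1, against 1.89% of all bins and 9.83% of the bins of genes with such RNA. The bin at the start of Suv39h2 held 0.32, 0.27 and 0.15 RPKM at 1000000, 100000 and 10000 cells and 0.11, 0.07 and 0.11 in a, b and c, a slope of 0.39 ± 0.13 (SE; limma adjusted p = 0.387) that was 0.56 ± 0.15 with voom weights (adjusted p = 0.0360). Its level at 1000000 cells equalled the mean panH3 of 0.320 RPKM. The enriched bin of Atf7ip was the only one of the 13 with a slope below 0 (-0.13 ± 0.07, SE; limma adjusted p = 0.696). Without the library of 1000000 cells 5 further bins had slopes below 0, none of them called. There is 1 library at each larger cell number, so cell number and library cannot be told apart.

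The genes whose profile lay nearest to the median of the set, over percentiles of RNA, H3K27me3 and H3K4me3 in 7 libraries among 20317 genes, were Ndufc2, a subunit of respiratory complex I, Mtfr1, a mitochondrial protein gene, and Actg1, a cytoplasmic actin, at distances of 6.60, 6.84 and 7.14 percentile points. Of the set itself Ehmt1 lay nearest, at 19.0, and Atf7ip farthest, at 85.6, with Cbx5 next at 32.6. The H3K27me3 part of these distances mixes start sites and 3′ ends, as described above.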

How the data were processed

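The values that the authors deposited are RPKM (reads per kilobase and per M reads), as named in the file headers, separately for each library. For panH3 the header names no unit, and RPKM was assumed from the size and steps of the values. BWA, SAMtools and mm9 are named in the submitters' processing notes; how duplicates and multiple matches were treated is not given in the sources used here. Of the start-site table, 2 columns that belong to another series stayed out. The highest bin is at 5.0 RPKM, which points to a limit above which windows were not kept. The highest H3K4me3 windows are at 49.21, 99.38 and 49.55 RPKM at 100000, 10000 and 5000 cells, so a limit may hold there too. Percentiles of H3K4me3 refer to the windows kept.

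Genes were found by symbol; where several rows carry a symbol, the row with the highest RNA, the row with the highest mean H3K27me3 and the window with the highest mean H3K4me3 over the libraries of the mark stand for the gene. H3K27me3 of minus-strand genes was read as a 3′ end value, for the reason given in the results. Bins of 2 kb were assigned by overlap with the gene span. Depth was recovered from the steps of RPKM in windows of equal length, where over 99% of low values were whole multiples to 2 decimals. H3K9me3 (a, b, c) was tested against panH3 (a, b) at 1000 cells, and H3K9me3 against log10 of the cell number over 6 libraries, on log2(RPKM + 0.1) with limma 3.58.1 in R 4.3.3 (intensity trend, robust moderation, two-sided, Benjamini-Hochberg threshold 0.05 over all bins above 0 in at least 1 library). Both were also run on simulated data, with changes placed only in bins of a mean above 0.2 RPKM. Power in bins of a lower mean was thus not examined. Everything else rests on 1 library per group and has no test.

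The members and lists were chosen with earlier results of these data known. All 10 members are named; from each list, the top 3 by RNA and the lowest 1, and the 3 genes most alike. C2, Hnrnpa1 and Hnrnpa2b1, the fibroblast genes at 0 and the bins singled out were added after their values were seen. Promoter sequences are those of RefSeq. Scripts ran in Python 3.11.15 with pandas 2.3.3, numpy 2.4.6, matplotlib 3.10.9 and scipy 1.17.1.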

Additional observations from a re-analysis of the deposited data

How the results depend on the processing

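The counts of 12 lower and 1 higher bin in H3K9me3 against panH3 were the same with a pseudocount of 1, with no filter, with centred libraries and with voom weights. With bins of a mean of at least 0.2 RPKM, 10 of 11 tested were lower and 1 higher. Leaving out each library in turn gave 11 to 12 lower and 1 higher in every case. With the letter as a replicate block the counts were 12 and 1. Over the bins, the a minus b deviations of H3K9me3 and panH3 correlated at -0.00955. This cannot tell whether the letters pair the libraries, since counting error enters each deviation and a shift common to all bins does not enter the correlation. For the slope on cell number, 4 of the 13 bins rose with voom weights and 0 under the other alternatives, including those without each library. With a mean of at least 0.2 RPKM, however, only the bins of Atf7ip and the Cbx1 bin at chr11:96654001-96656000 were tested for the slope. None of the bins that rose with voom weights was among them. Over all bins voom called 1771 rising, a pseudocount of 1 called 99 and leaving out the library of 10000 cells called 10, against 0. Taking the mean of a gene's windows in place of that with the highest mean moved the H3K4me3 medians of the set to 3.75, 23.1 and 10.6 RPKM at 100000, 10000 and 5000 cells. These lie below the 4.58, 24.4 and 10.8 RPKM of genes with RNA of at least 1 RPKM. Those medians take the window with the highest mean, and none by the mean of windows is given for other genes. Using only the plus-strand genes, an alternative chosen after seeing the data, moved the H3K27me3 median at 10000 cells from 0.115 to 0.13 RPKM. Ranking among genes above 0 moved no percentile by more than 6.10 points. In the libraries of H3K4me3 at 10000 and 5000 cells a window of Atf7ip or Trim28 rests on 5 to 20 reads, which limits their order.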

Other observations

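No bin touches Suv39h1, Ehmt2 or Trim28, but bins within 50 kb of them were measured. H3K9me3 was lower than panH3 in 3 of 3 bins around Suv39h1, 4 of 4 around Ehmt2 and 3 of 3 around Trim28 (limma, Benjamini-Hochberg adjustment over all bins), against 24.7% of all bins, 45.6% of bins touching a gene and 75.8% of bins touching a gene with at least the RNA of Suv39h2. Around Ehmt2 the lowest of these bins, chr17:35070001-35072000 in Neu1, held 0, 0.10 and 0.09 RPKM in libraries a, b and c against 0.42 and 0.39 of panH3. Around the other genes the lower bins were 4 of 4 for Cbx1, 4 of 5 for Cbx3, 3 of 5 for Cbx5, 3 of 4 for Suv39h2, 2 of 3 for Ehmt1, 2 of 4 for Setdb1 and 1 of 4 for Atf7ip.

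H3K27me3 was high in some of these bins. The bin at chr15:102998001-103000000, within 50 kb of the 3′ end of Cbx5 and touching no gene of the table, held 2.21, 2.81 and 1.23 RPKM at 100000, 10000 and 1000 cells, against 0, 0.07 and 0.08 RPKM in the bin inside Cbx5. The mean panH3 there was 0.305 RPKM. A bin at -46.5 to -44.5 kb of the Cbx1 start site, in Skap1, held 1.22, 1.5 and 0.5 RPKM, against 0.08, 0.23 and 0.12 in the bin 1.55 kb into Cbx1. These values have no replicate check, and bins were chosen after their values were seen.

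Of the 16 listed H3K9 methyltransferase and demethylase genes outside the set, Prdm8, listed at 0 in RNA, had the highest H3K27me3, with 3.58, 3.33 and 1.96 RPKM at its start site on the plus strand. The other 15 stood between 0 and 0.61 RPKM at 100000 cells, at start sites or 3′ ends by strand.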
